A study of Mus musculus with 7 samples.

Results

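The genes described are 10 long RNAs of neural tissue, *Meg3*, *Rian*, *Mirg*, *Miat*, *Snhg11*, *Gas5*, *Sox2ot*, *Pantr1*, *Kcnq1ot1* and *Rmst*. They were chosen by name, found by their GENCODE M21 symbols, and are 10 of the 55487 genes in the count table. RNA-seq was made from the cervical spinal cord of 8-week-old mice, with 1 library from each of 4 *Neat1*-KO; hSOD1G93A mice and 3 *Neat1*-WT; hSOD1G93A mice. Every mouse carried the hSOD1G93A transgene, a human *SOD1* with a mutation of familial amyotrophic lateral sclerosis (ALS) that drives motor neuron degeneration, and the *Neat1*-WT mice were the only controls, so no library shows the cord without the transgene. The hSOD1G93A line was kept hemizygous on a mixed B6/SJL background, and the design of the *Neat1*-KO allele is not given in the sources used here. The libraries are called *Neat1*-KO replicates 1 to 4 and *Neat1*-WT replicates 2 to 4, after their labels. The question asked of these genes was whether other nuclear RNAs follow the loss of *Neat1*, the RNA scaffold of nuclear bodies called paraspeckles.

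Long non-coding RNAs act as RNA, many of them in the nucleus where they are made. *Meg3*, *Rian* and *Mirg* are transcribed from the maternal chromosome of the imprinted Dlk1-Dio3 region and carry microRNAs and small nucleolar RNAs (snoRNAs) in their introns and exons. *Kcnq1ot1* is transcribed from the paternal chromosome and silences its neighbours on that chromosome. *Gas5* and *Snhg11* are spliced hosts of snoRNAs, *Miat* is a neuronal RNA held in the nucleus, and *Sox2ot*, *Pantr1* and *Rmst* lie at or act with genes for transcription factors of the neural lineage, *Sox2* and *Pou3f3* among them.

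*Miat* is known for repeats of TACTAAC, the letters of an intron branch point, which bind the splicing factor SF1. Its longest GENCODE M21 transcript, of 9163 bases, held 6 copies, 0.655 per kb against 0.0311 per kb over the longest transcripts of 13374 long non-coding genes. *Kcnq1ot1* held 4 copies in 93092 bases, *Neat1* held 1 in 20771, and the other 8 members held 0. The 300 bases that hold the most copies in *Miat*, in exon 7 of 7 at chr5:112217223-112217522 on the minus strand of GRCm38, are shown because this repeat sets *Miat* apart in sequence, with the copies in capitals.
Miat: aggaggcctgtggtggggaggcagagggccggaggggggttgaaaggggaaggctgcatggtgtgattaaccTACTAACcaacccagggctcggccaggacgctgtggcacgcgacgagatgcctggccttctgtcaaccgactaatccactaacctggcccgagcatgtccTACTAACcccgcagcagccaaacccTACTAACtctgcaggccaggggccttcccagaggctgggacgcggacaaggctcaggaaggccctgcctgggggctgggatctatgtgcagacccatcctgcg
This window held 3 copies. Of 64012 windows of 300 bases cut end to end from the same long non-coding transcripts, 0.886% held at least 1 and 0.00625% at least 3. Those windows were not picked for copies and the *Miat* window was, so the shares do not measure how rare it is.

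The second motif searched was TGTGTGTGTGTG, a repeat of the 2 letters that TDP-43, the RNA-binding protein that leaves the nucleus in ALS, binds as UG in RNA. Counted without overlap on the transcript strand alone, as was TACTAAC, it occurred 1 time in *Pantr1* (0.480 per kb), 4 times in *Miat* (0.437 per kb), 6 times in *Meg3* (0.412 per kb), 8 times in the long *Kcnq1ot1* (0.0859 per kb) and 0 times in the other 6 members. *Neat1* held 4 (0.193 per kb) and *Malat1* 0, and over all 13374 long non-coding transcripts there were 0.0864 per kb. At least 1 copy was present in 6.01% of the 13374 long non-coding transcripts. The 2 motifs cannot overlap each other. Shown are 120 bases of *Meg3*, from exon 5 of 5 at chr12:109565101-109565220 on the plus strand, and 120 bases of *Pantr1*, from exon 4 of 4 at chr1:42592317-42592436 on the minus strand of GRCm38, with every base that lies in a match to the repeat in capitals, matches that overlap included. They contrast the member with the most reads with the member that differed most between the genotypes.
Meg3: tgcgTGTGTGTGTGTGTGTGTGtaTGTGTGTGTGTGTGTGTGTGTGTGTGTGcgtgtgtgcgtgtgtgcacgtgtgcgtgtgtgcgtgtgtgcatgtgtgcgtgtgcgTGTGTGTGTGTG
Pantr1: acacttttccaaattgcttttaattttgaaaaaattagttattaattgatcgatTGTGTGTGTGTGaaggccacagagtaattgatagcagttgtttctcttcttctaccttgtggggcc
Counted without overlap, the *Meg3* window held 4 copies and the *Pantr1* window 1. Each window was picked as the 120 bases within a single exon that hold the most copies in that transcript. Of 169878 windows of this length cut end to end from the long non-coding transcripts, 0.563% held at least 1 copy and 0.0353% at least 4. Those windows were not picked for copies, so the shares do not measure how rare the picked windows are. A match is a stretch of letters and not a measured binding site. The authors of the data cite reports that TDP-43 is not abnormal in mice with mutant SOD1, so these counts do not bear on TDP-43 loss here.

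Among the members, 21 microRNA hairpins of the RefSeq table on GRCm38.p6 lay on the same strand inside 5 gene bodies, 14 in *Mirg*, 3 in *Rian*, 2 in *Rmst* and 1 each in *Meg3* and *Sox2ot*. They gave 40 mature microRNAs with 39 different seeds, the bases 2 to 8 that pair with a target. Shown, with the seed in capitals, are the only 2 that share a seed, both from *Mirg*, and 1 further microRNA each from *Mirg*, *Rian*, *Meg3* and *Rmst*.
mmu-miR-453: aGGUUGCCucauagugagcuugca
mmu-miR-496a-5p: aGGUUGCCcaugguguguuca
mmu-miR-134-5p: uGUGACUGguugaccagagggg
mmu-miR-370-3p: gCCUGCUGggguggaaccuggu
mmu-miR-770-5p: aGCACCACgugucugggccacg
mmu-miR-135a-5p: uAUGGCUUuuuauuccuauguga
The libraries measured the poly(A) host transcripts, not these mature microRNAs.

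The libraries held 19661878 to 26031517 counted reads, and mitochondrial genes took 3.69% to 5.24% of them. The targeted gene followed the labels: *Neat1* had 5.09, 5.40, 5.52 and 4.04 CPM (counts scaled to library size, with TMM factors) in *Neat1*-KO replicates 1 to 4. It had 86.2, 80.5 and 118 CPM across *Neat1*-WT replicates 2 to 4 (log2 fold change -4.25, edgeR, adjusted p = 1.5e-08). The cervical markers *Hoxa4*, *Hoxb4*, *Hoxc4*, *Hoxc5* and *Hoxb6* summed to 120 to 152 CPM, and the forebrain marker *Emx1* and the lumbar marker *Hoxd10* had at most 3 counts in every library. *Xist* had at most 4 counts in every library.

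Levels of different genes were compared only per length, as CPM per kb of merged exons, here with the SD over all 7 libraries. *Snhg11*, which GENCODE M21 annotates as protein coding, came first at 71.5 ± 8.84 and *Meg3* second at 61.6 ± 8.54, with overlapping libraries. *Rian* followed at 23.0 ± 1.57, and then *Miat* at 12.6 ± 1.48 and *Gas5* at 11.6 ± 1.11, which overlapped each other. *Sox2ot* at 5.48 ± 2.36, *Pantr1* at 2.29 ± 0.646 and *Mirg* at 2.08 ± 0.175 overlapped in turn. *Rmst* at 0.618 ± 0.111 and *Kcnq1ot1*, annotated as a single exon of 93.1 kb, at 0.10 ± 0.026 stood apart below them. Among the 18449 genes tested, 6 of the 10 members lay above the median level per length, from *Snhg11* and *Meg3* at the 96.6th and 96.0th percentiles down to *Sox2ot* at the 56.9th. *Pantr1*, *Mirg*, *Rmst* and *Kcnq1ot1* lay below it, at the 35.7th, 33.8th, 14.1st and 0.656th percentiles, so by this measure they were not abundant among all genes tested. Among the 2359 tested genes of long non-coding biotype they ranked 1022, 1089, 1835 and 2344 per length, and 440, 301, 842 and 480 by CPM. Merged exons can be longer than any 1 transcript (*Mirg*, 7292 bases against 3822 in its longest), which lowers a level per kb. *Meg3*, *Snhg11* and *Rian* together held 89.0% of the reads of the 10 genes, which as a set took 0.201% to 0.289% of a library.

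**Figure D1:**
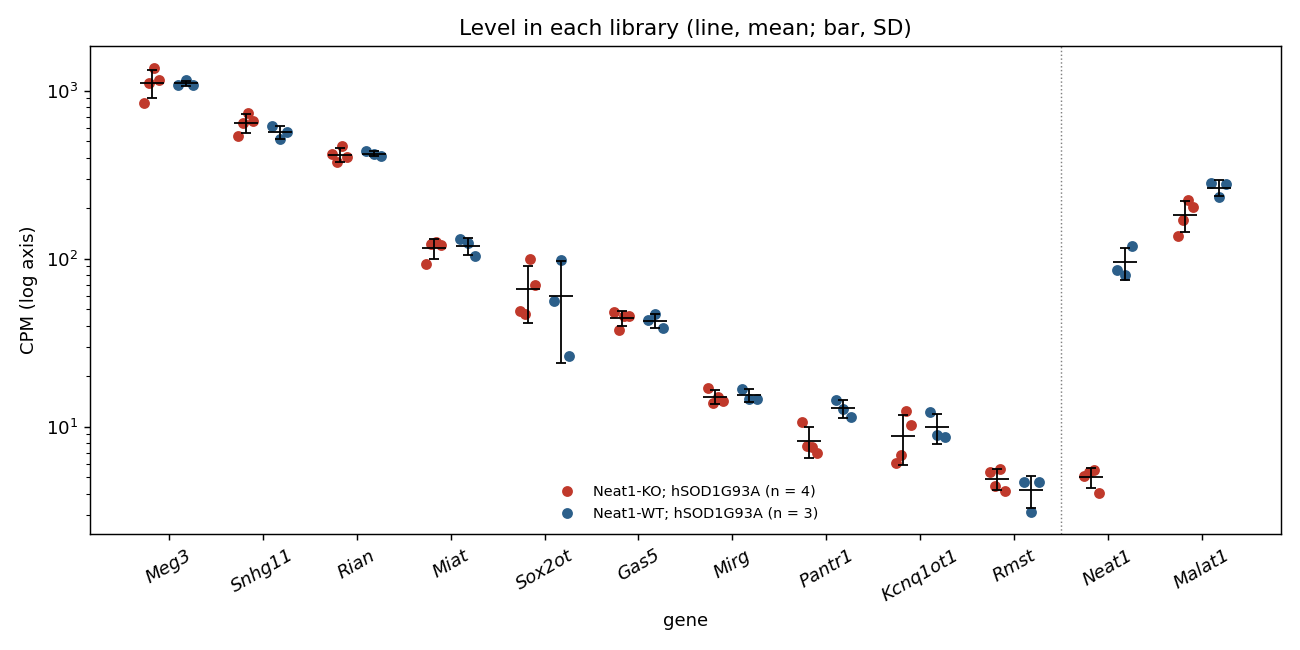
CPM on a log axis for the 10 members in order of mean level, and for *Neat1* and *Malat1* to the right of the dotted line. Each point is 1 library (red, 4 *Neat1*-KO; hSOD1G93A; blue, 3 *Neat1*-WT; hSOD1G93A), with the mean and SD of each genotype in black. *Pantr1* is the only member whose red and blue points do not overlap, while the *Sox2ot* points spread from 26.3 to 99.2 CPM.

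None of the 10 members was called between the genotypes. A call needed an adjusted p under 0.1 in the edgeR quasi-likelihood test, and a log2 fold change beyond 0.58 in either direction. Over all 18449 genes tested, 6 were called (0.0325%), and over the 2359 genes of long non-coding biotype 2 were (0.0848%). All 10 members passed the filter on low counts. At an unadjusted p under 0.05 there was 1 member, *Pantr1*, against 4.64% of all genes and 4.37% of the long non-coding genes, and DESeq2 called 1 member, also *Pantr1*, and 27 of all genes (0.146%). The log2 fold changes, *Neat1*-KO over *Neat1*-WT, were above 0 for 5 members and below 0 for 5, with a median of -0.0011 beside 0.0062 over all genes tested. The 95% interval of the log2 fold change lay within 0.58 on either side of 0 for 6 members, *Meg3*, *Rian*, *Mirg*, *Miat*, *Snhg11* and *Gas5*, and this was so for 69.1% of all genes and for 37.2% of the long non-coding genes. For *Sox2ot*, *Pantr1*, *Kcnq1ot1* and *Rmst* the interval reached past that limit.

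**Figure D2:**
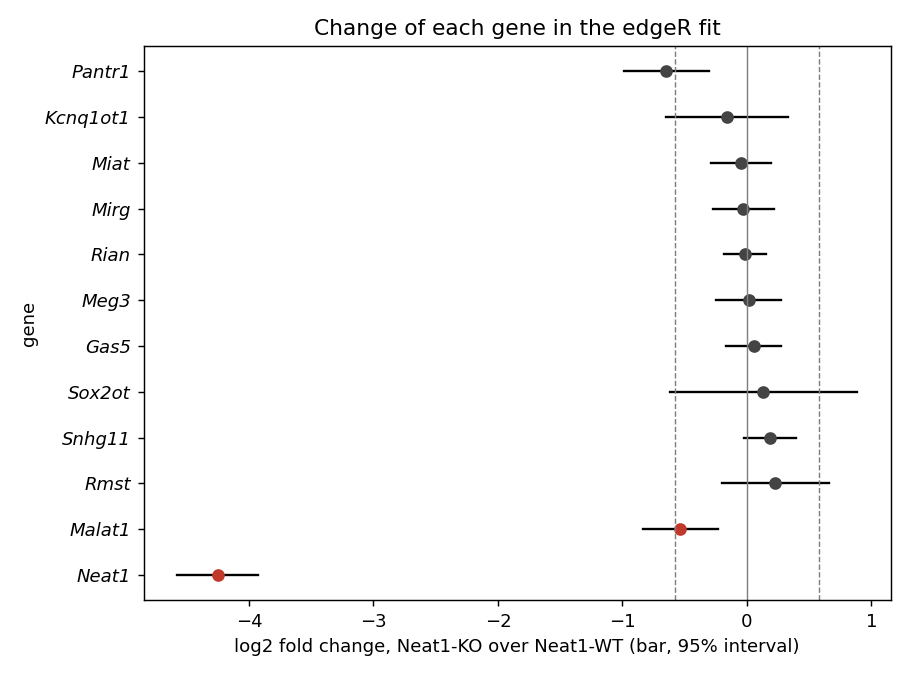
Log2 fold change, *Neat1*-KO over *Neat1*-WT, from the edgeR fit over all genes, with its 95% interval, for the 10 members (dark points) and for *Malat1* and *Neat1* (red points). The dashed lines mark 0.58 on either side of 0. Intervals of 6 members lie between the dashed lines, the one of *Pantr1* lies below 0, and *Neat1* sits at -4.25.

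*Pantr1* is a long non-coding RNA of neural progenitors and neurons that begins beside *Pou3f3*, a gene for a POU-domain transcription factor. GENCODE M21 places it at chr1:42590782-42694842 on the minus strand of GRCm38, the build of all gene positions given here. It was at 10.7, 7.70, 7.56 and 6.98 CPM across *Neat1*-KO replicates 1 to 4 and at 14.5, 12.7 and 11.4 CPM across *Neat1*-WT replicates 2 to 4. Every *Neat1*-KO library was thus below every *Neat1*-WT library, and the closest pair was *Neat1*-KO replicate 1 and *Neat1*-WT replicate 4. In *Neat1*-KO the mean was 8.24 ± 1.69 CPM (SD, n = 4). In *Neat1*-WT it was 12.9 ± 1.56 CPM (SD, n = 3), and the log2 fold change between them was -0.65, with a 95% interval of -0.99 to -0.30. The unadjusted p was 0.0014, below which lay 0.211% of all genes, and the adjusted p over all genes was 0.636, so it did not pass the threshold. Libraries that did not overlap, with *Neat1*-KO lower, were found for 2.57% of all genes and for 2.71% of the long non-coding genes, and in either direction for 5.47% and 5.68%. An exact permutation test gave p = 0.0571, where the smallest two-sided p of the design is 0.0286. Without *Neat1*-KO replicate 1 the log2 fold change was -0.80 and the adjusted p 0.0482, and it was called. Over the alternatives listed with the methods its log2 fold change ranged from -0.80 to -0.55 and its adjusted p from 0.0055 to 1.0. The lowest came with no filter, where 124 genes were called in place of 6. The gene had between 163 and 320 reads per library, and its exons share no base with another annotated gene.

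*Pantr1* and *Pou3f3* lie head to head on chromosome 1, the bodies 926 bp apart, and a second long non-coding gene, *Pantr2*, lies 3885 bp past the far end of *Pou3f3*. *Pou3f3* was at 100, 109, 106 and 103 CPM in the *Neat1*-KO libraries and 105, 111 and 109 CPM in the *Neat1*-WT libraries. Its groups overlapped, and its log2 fold change was -0.049 with a 95% interval of -0.20 to 0.098. *Pantr2* was at 0.873, 0.967, 1.72 and 1.07 CPM against 3.03, 1.96 and 2.40 CPM, from 17 to 67 reads. It also did not overlap between the genotypes, with a log2 fold change of -1.09 (95% interval -1.72 to -0.47, unadjusted p = 0.0024, adjusted p = 0.705, edgeR), and it was not called. The 2 non-coding genes thus had lower values in each *Neat1*-KO library, with the coding gene between them at a near equal level.

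Motor neuron markers were also lower in sum in the *Neat1*-KO libraries. The summed level of *Chat*, *Slc5a7*, *Slc18a3*, *Isl1*, *Mnx1* and *Prph*, all above 3 counts, was 278 to 338 CPM in the *Neat1*-KO libraries and 360 to 428 CPM in the *Neat1*-WT libraries, with 3 of the 6 at an unadjusted p under 0.05, against 4.64% of all genes, and 0 called. The sums were 336, 278, 338 and 314 CPM across *Neat1*-KO replicates 1 to 4 and 428, 360 and 374 CPM across *Neat1*-WT replicates 2 to 4. For these sums and for *Pantr1*, every *Neat1*-KO library lay below every *Neat1*-WT library, and *Neat1*-WT replicate 2 was highest. Within *Neat1*-KO the order differed. Replicate 3 had the highest sum with *Pantr1* at 7.56 CPM, and replicate 1 had 336 CPM with *Pantr1* at 10.7 CPM. The part of these markers in the *Pantr1* values was not tested, and in whole cord fewer cells of a type and less RNA per cell cannot be told apart. Summed markers of neurons at large (3395 to 3874 against 3467 to 4055 CPM), astrocytes (4458 to 5660 against 4492 to 5306 CPM), microglia (219 to 305 against 213 to 299 CPM), oligodendrocytes (33417 to 36229 against 34827 to 42685 CPM) and meninges (69.4 to 182 against 62.7 to 187 CPM) overlapped between the genotypes. Of the oligodendrocyte and the meningeal markers 1 each had an unadjusted p under 0.05.

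**Figure D3:**
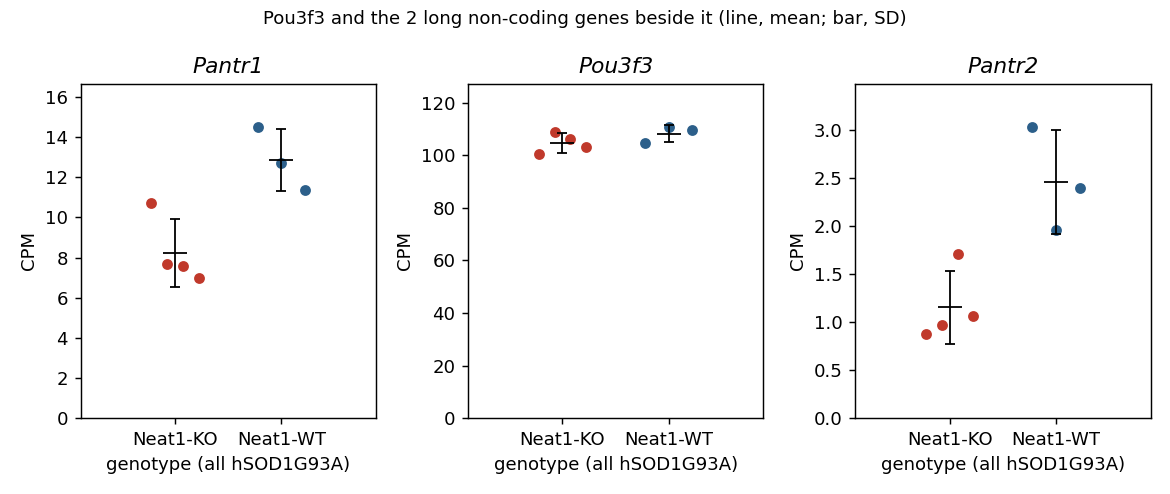
CPM of *Pantr1*, *Pou3f3* and *Pantr2* in each library (red, 4 *Neat1*-KO; blue, 3 *Neat1*-WT; all hSOD1G93A), with mean and SD in black and each axis starting at 0. *Pantr1* and *Pantr2* separate by genotype and *Pou3f3*, between 100 and 111 CPM, does not.

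The 3 RNAs of the Dlk1-Dio3 region lie within 208 kb on the plus strand of chromosome 12, *Meg3* at chr12:109541001-109571726, *Rian* at chr12:109603940-109661716 and *Mirg* at chr12:109729764-109749460, with gaps of 32.2 kb between *Meg3* and *Rian* and 68.0 kb between *Rian* and *Mirg*. *Meg3*, a maternally transcribed RNA, was at 840, 1107, 1363 and 1161 CPM across *Neat1*-KO replicates 1 to 4 and at 1081, 1157 and 1085 CPM across *Neat1*-WT replicates 2 to 4. The lowest and the highest library were both *Neat1*-KO, and the means of 1118 ± 216 and 1108 ± 42.6 CPM gave a log2 fold change of 0.013 (95% interval -0.25 to 0.28). *Rian*, the host of snoRNAs of the region, was at 421, 377, 468 and 401 CPM against 436, 419 and 408 CPM. Its groups overlapped around a log2 fold change of -0.016, with the narrowest interval of the members, -0.18 to 0.15, and it had the lowest coefficient of variation over the 7 libraries, 6.83%. *Mirg*, the microRNA host, was at 17.1, 13.9, 15.0 and 14.3 CPM against 16.9, 14.6 and 14.6 CPM, a log2 fold change of -0.029 (-0.27 to 0.21). Of 9 genes listed for the region 6 were tested and 0 called. The smallest unadjusted p values were those of *Dlk1*, a paternally expressed Notch-family ligand, with a log2 fold change of 0.21 (-0.0074 to 0.43), and of *Begain*, a gene for a synaptic protein, at 0.18 (-0.036 to 0.40). *Rtl1*, the nearest protein-coding gene to all 3 RNAs and antisense to microRNAs of the region, had a log2 fold change of 0.16 (-0.18 to 0.49).

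Over the 7 libraries Pearson's r of log2 CPM was 0.329 for *Meg3* and *Rian* (exact permutation p = 0.466) and -0.585 for *Meg3* and *Mirg* (p = 0.197). Their Spearman's rho was -0.036 (p = 0.963) and -0.464 (p = 0.302). *Rian* and *Mirg* ranked the libraries more alike, with r = 0.502 (exact permutation p = 0.258) and rho = 0.857 (exact permutation p = 0.0238, adjusted p = 0.692). Among all 45 pairs of members none passed an adjusted p of 0.05, the smallest being 0.682 for r and 0.692 for rho. By rho, *Rian* with *Mirg* and *Miat* with *Kcnq1ot1* (rho = 0.786, exact permutation p = 0.0480) had an unadjusted p under 0.05. By r, 2 other pairs did. These were *Meg3* with *Miat* (r = 0.784, rho = 0.357, exact permutation p = 0.0333 and 0.444) and *Meg3* with *Kcnq1ot1* (r = 0.734, rho = 0.607, p = 0.0442 and 0.167). Without the 2 libraries farthest from the median of *Meg3* they fell to 0.262 and -0.076, so both rested on those libraries.

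**Figure D4:**
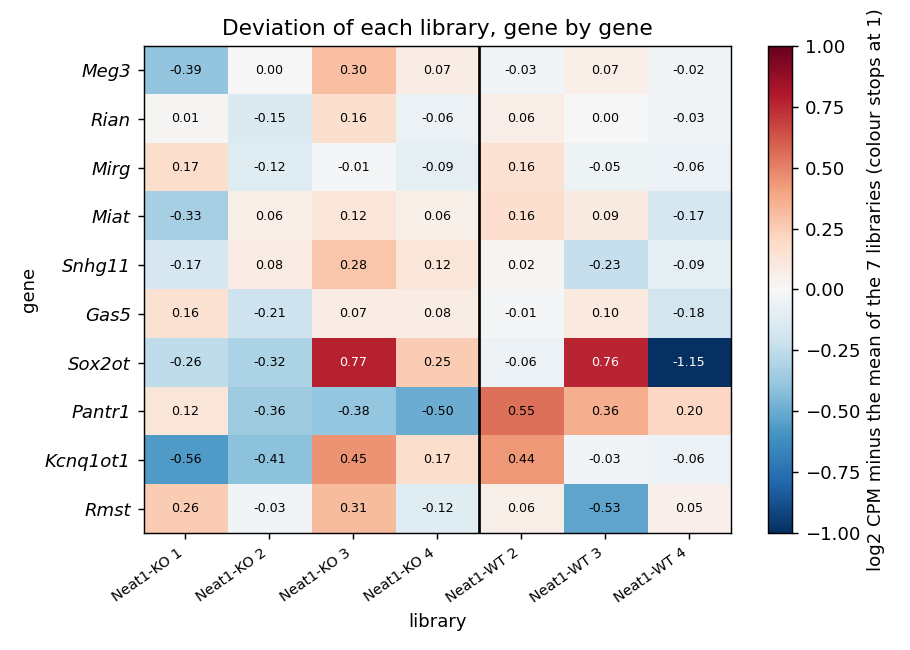
Log2 CPM of each library minus the mean of the 7, for each member, with *Neat1*-KO to the left of the black line and *Neat1*-WT to the right. The colour scale stops at 1 and the value is printed in each cell. The *Pantr1* row is the only one with higher values in every *Neat1*-WT library, and the *Sox2ot* row has the widest range, from -1.15 to 0.77.

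*Miat* (chr5:112213228-112229395, minus strand) was at 92.5, 122, 126 and 122 CPM across *Neat1*-KO replicates 1 to 4 and at 130, 124 and 103 CPM across *Neat1*-WT replicates 2 to 4. *Neat1*-KO replicate 1 stood below the other *Neat1*-KO libraries, the groups overlapped, and the log2 fold change was -0.047 (95% interval -0.29 to 0.19). Of its exon bases 24.3% lie opposite exons of other genes on the other strand, and because the strand setting of the counting is not given in the sources used here, reads of these genes may not be separate. *Cryba4*, the nearest tested protein-coding gene, a lens crystallin, had 3 to 19 reads per library and a log2 fold change of -0.046 (-1.47 to 1.37).

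*Kcnq1ot1* (chr7:143203458-143296549, minus strand) was at 6.11, 6.81, 12.3 and 10.2 CPM against 12.2, 8.87 and 8.67 CPM. Its *Neat1*-KO libraries lay both below and above the *Neat1*-WT libraries, and the log2 fold change was -0.16 (95% interval -0.65 to 0.33). Of 18 genes listed for the Kcnq1 imprinted domain, 14 were tested and 0 called, with 7 higher and 7 lower. *Kcnq1*, the potassium channel gene that *Kcnq1ot1* overlaps on the other strand, had 0.714 to 1.45 CPM and a log2 fold change of 0.40 (-0.33 to 1.14). *Osbpl5*, an oxysterol-binding protein gene, was 37.9 to 41.2 CPM against 33.4 to 37.5 CPM, without overlap (log2 fold change 0.14, -0.032 to 0.32). It was the only 1 of the 14 without overlap, beside 5.47% of all genes in either direction. *Igf2*, the imprinted growth factor gene, had a log2 fold change of 0.91 (-0.16 to 1.98) and *Nap1l4*, a histone chaperone gene, 0.11 (-0.051 to 0.27).

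*Gas5*, a snoRNA host that accumulates in growth-arrested cells and lies at chr1:161034422-161038539 on the plus strand, was at 48.5, 37.7, 45.8 and 45.9 CPM against 43.1, 46.6 and 38.4 CPM, with overlapping groups and a log2 fold change of 0.057 (95% interval -0.16 to 0.28). Its body holds 10 snoRNA genes, which take 17.8% of its exon bases on the same strand together with other genes. *Zbtb37*, a zinc finger gene that starts opposite *Gas5*, had a log2 fold change of -0.14 (-0.48 to 0.19). *Snhg11*, a snoRNA host of neurons at chr2:158375638-158386145 on the plus strand, was at 539, 639, 733 and 658 CPM against 613, 516 and 567 CPM. *Neat1*-KO replicates 2, 3 and 4 lay above all *Neat1*-WT libraries and *Neat1*-KO replicate 1 among them, with a log2 fold change of 0.18 (-0.027 to 0.39, unadjusted p = 0.0818). Without *Neat1*-KO replicate 1 it was 0.26 (unadjusted p = 0.0072, adjusted p = 0.538), and its adjusted p over all alternatives ranged from 0.538 to 1.0. *Ralgapb*, the nearest protein-coding gene, had a log2 fold change of -0.088 (-0.25 to 0.068).

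Of 22 listed snoRNA host genes 19 were found, 18 tested and 0 called, with 9 higher and 9 lower. *Snhg1* stood first of them, at 2.48 to 4.32 CPM against 4.54 to 5.25 CPM (log2 fold change -0.63, -1.08 to -0.18, adjusted p = 0.962 in edgeR). *Snhg20*, at 14.2 to 16.3 against 11.5 to 13.5 CPM, and *Snhg17*, at 5.45 to 6.50 against 4.16 to 5.30 CPM, were higher in every *Neat1*-KO library, with log2 fold changes of 0.21 and 0.29. Libraries without overlap in either direction were found for 5.47% of all genes and for 3 of these 18.

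*Sox2ot* is a spliced RNA whose body of 578 kb (chr3:34104270-34682619, plus strand) holds *Sox2*, the transcription factor of neural stem cells and glia, on the same strand. It was at 48.7, 46.7, 99.2 and 69.4 CPM across *Neat1*-KO replicates 1 to 4 and at 55.8, 98.5 and 26.3 CPM across *Neat1*-WT replicates 2 to 4. The highest library of each genotype reached nearly the same level, and the lowest of all was *Neat1*-WT replicate 4. That library also had the highest summed markers of sensory ganglia (1.99 CPM, 0.464 to 1.11 in the others), meninges (187 CPM) and oligodendrocytes (42685 CPM). Only 1 of the 4 sensory ganglion markers had over 3 counts in every library, and the meningeal sum of *Neat1*-KO replicate 2 was 182 CPM. The part of these markers in the *Sox2ot* values was not tested. The means of 66.0 ± 24.4 and 60.2 ± 36.3 CPM gave a log2 fold change of 0.13 with the widest interval of the members, -0.62 to 0.88. Its coefficient of variation was 43.0% against a median of 13.1% over the members. Among the 7276 genes whose mean level was at least its lowest CPM, 0.220% had a higher one. *Sox2* was at 45.5, 49.2, 42.4 and 38.6 CPM against 35.6, 36.4 and 42.2 CPM, with a coefficient of variation of 11.9% and a log2 fold change of 0.21 (-0.012 to 0.42).

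Inside the *Sox2ot* body 14 other genes are annotated, of which 5 passed the filter, and these were looked at after the spread of *Sox2ot* had been seen. *Gm20515*, a long non-coding gene on the other strand, was at 4.67, 4.15, 1.48 and 2.71 CPM across *Neat1*-KO replicates 1 to 4 and at 5.79, 2.29 and 8.00 CPM across *Neat1*-WT replicates 2 to 4, from 32 to 157 reads. It was high in the libraries where *Sox2ot* was low and low where it was high, in both genotypes. Pearson's r of log2 CPM with *Sox2ot* was -0.919 (exact permutation p = 0.0046, adjusted over the 5 genes p = 0.0228) and Spearman's rho was -0.857 (exact permutation p = 0.0238, adjusted p = 0.119). It was -0.831 without the 2 libraries farthest from the median of *Sox2ot* and -0.939 with each genotype centred on its mean. *Gm42205*, a second long non-coding gene on the other strand, was at 0.976, 0.685, 0.232 and 0.0763 CPM against 1.13, 0.0934 and 2.40 CPM, from 2 to 47 reads. Its r with *Sox2ot* was -0.836 (exact permutation p = 0.0196, adjusted p = 0.0491) and its rho -0.714 (p = 0.0881, adjusted p = 0.220). It was -0.832 without the 2 libraries and -0.828 within genotypes. For *Sox2* r was -0.396 (exact permutation p = 0.387, rho = -0.357 with p = 0.444), -0.708 without the 2 libraries and -0.705 within genotypes. The other 2 genes had r of -0.593 (*Gm42692*, exact permutation p = 0.156) and 0.215 (*Gm42693*, p = 0.652). No exon base of *Sox2ot* is shared with a gene on the other strand. Neither *Gm20515* (log2 fold change -0.72, -1.58 to 0.14) nor *Gm42205* (-1.31, -3.02 to 0.38) was called between the genotypes. *Gm42693*, at 0.464 to 0.763 CPM in *Neat1*-KO and 0.153 to 0.226 CPM in *Neat1*-WT, from 3 to 20 reads, did not overlap. Such a gap in either direction was found for 5.47% of all genes, and *Gm42693* was not called (log2 fold change 1.69, 0.72 to 2.72, adjusted p = 0.722, edgeR).

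**Figure D5:**
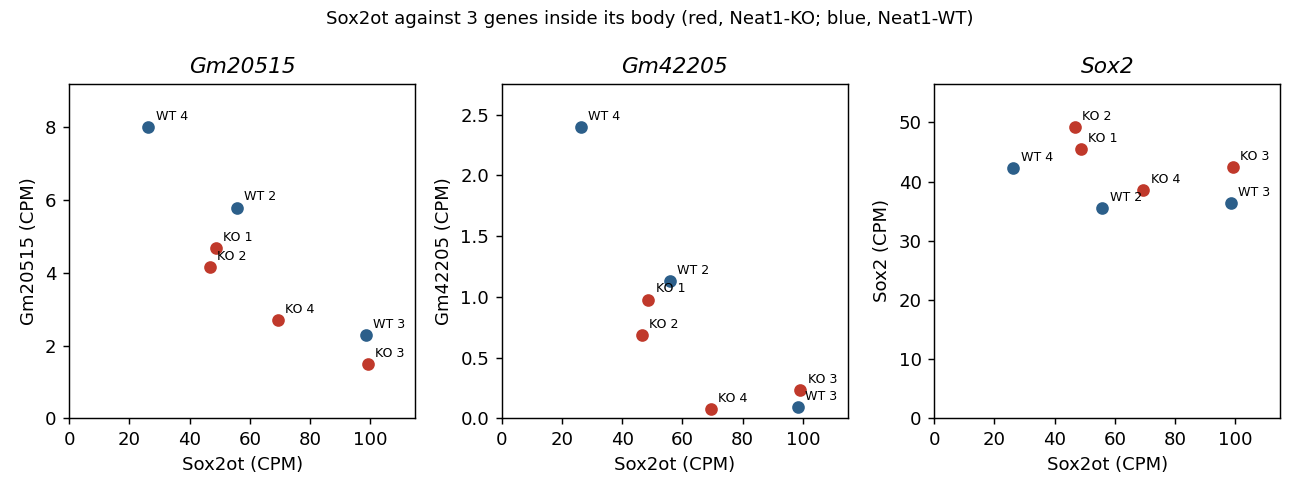
CPM of *Gm20515*, *Gm42205* and *Sox2*, each against the CPM of *Sox2ot* in the same library (red, *Neat1*-KO; blue, *Neat1*-WT; the number is the replicate; all axes start at 0). *Gm20515* falls from 8.00 CPM in the library with the least *Sox2ot* to 2.29 and 1.48 CPM in those with the most, and *Sox2* stays between 35.6 and 49.2 CPM.

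*Rmst*, a long non-coding RNA known to act with *Sox2* in neuronal differentiation (chr10:92071037-92165170, minus strand), had the fewest reads of the members in every library. It was at 5.39, 4.43, 5.61 and 4.16 CPM in the *Neat1*-KO libraries and at 4.71, 3.13 and 4.69 CPM in the *Neat1*-WT libraries, from 67 to 121 reads. The groups overlapped, with a log2 fold change of 0.23 (95% interval -0.20 to 0.66). Of its exon bases 12.5% are shared with other genes on the same strand and 26.3% on the other strand. *Nedd1*, its nearest tested protein-coding gene at 520 kb and a component of the centrosome, had a log2 fold change of -0.22 (-0.62 to 0.19).

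Beyond the members, 32 further long non-coding RNAs of brain or nucleus were listed, of which 28 were found and 20 tested. The only call was *Neat1* itself. *Malat1*, the RNA of nuclear speckles and the neighbour of *Neat1*, was at 136, 169, 224 and 202 CPM across *Neat1*-KO replicates 1 to 4 and at 284, 233 and 278 CPM across *Neat1*-WT replicates 2 to 4. All *Neat1*-KO libraries were below all *Neat1*-WT libraries, and its log2 fold change was -0.54 (95% interval -0.83 to -0.24, unadjusted p = 0.0020, adjusted p = 0.704, edgeR). Its adjusted p was 0.0439 with DESeq2 and 6.5e-08 with no filter, and over all alternatives it ranged from 6.5e-08 to 1.0. In both of these its log2 fold change of -0.54 was short of the minimum for a call. The fit with no filter called 124 genes in place of 6, so its value is a check and not stronger evidence. *Malat1* has no poly(A) tail in its mature form, so poly(A) selection captures it in part only. *Malat1*, *Pantr2* and *Neat1* had unadjusted p values under 0.05, and the other 17 did not, among them *Firre* at a log2 fold change of 0.17 (-0.035 to 0.38). Libraries without overlap in either direction were found for 4 of these 20 and for 5.47% of all genes. They were *Malat1*, *Pantr2* and *Neat1*, lower in *Neat1*-KO, and *Peg13*, higher in *Neat1*-KO at 416.2 to 443.4 CPM against 400.5 to 415.6 CPM.

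The *Neat1*-KO libraries, 4 of the 7, held most of the extremes. How often each library is the extreme over all genes was not counted. *Neat1*-KO replicate 3 held the highest level of 6 members, *Meg3*, *Rian*, *Snhg11*, *Sox2ot*, *Kcnq1ot1* and *Rmst*. *Neat1*-KO replicate 1 held the lowest level of *Meg3*, *Miat* and *Kcnq1ot1*, and of *Malat1*, and the highest of *Mirg* and *Gas5*. *Neat1*-KO replicate 2 held the lowest of *Rian*, *Mirg* and *Gas5*. With 3 or 4 mice per genotype, changes smaller than the intervals given could not be detected.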

How the data were processed

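The authors isolated poly(A) RNA, made directional libraries, trimmed the reads, aligned them to mm10 with HISAT2 2.1.0 and used featureCounts 1.6.3 to count reads mapped uniquely. The build is that of the submitters' processing notes. They deposited raw read counts per Ensembl gene, not normalized. The annotation release and the strand setting are not given in the sources used here. All 7 sample columns were used.

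GENCODE M21 on GRCm38 named 55227 of the 55487 genes, and the other 260 hold 0.00446% of the counts. In edgeR 4.0.16 (R 4.3.3) genes were filtered by filterByExpr, scaled by TMM and tested over the whole table by the two-sided quasi-likelihood F-test with Benjamini-Hochberg adjustment (18449 genes). CPM used the TMM factors, 0.991 to 1.008. Intervals of the log2 fold change came from that fit. Single genes were also tested by exact permutation of the genotype labels (35 arrangements), on the absolute difference of mean log2 CPM. Correlations used all exact pairings of 7 libraries.

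The members and lists were chosen with earlier results of these data known. Named were *Neat1*, *Malat1*, *Xist*, the members, the nearest tested protein-coding gene of each, and up to 3 genes per list with the smallest p. *Osbpl5*, *Snhg17*, *Snhg20*, *Peg13*, *Gm20515*, *Gm42205*, *Gm42692* and *Gm42693* were named after their values were seen where that rule did not take them. Alternatives were median-of-ratios, upper-quartile and total count scaling, no filter, a filter of 0.5 CPM in 1 library, DESeq2 1.42.0, limma-voom (limma 3.58.1), *Xist* as a covariate, robust dispersion, each library left out, a block for the replicate number, an adjusted p under 0.05 and no minimum of fold change. The labels give a genotype and a number, and each library was taken as a separate mouse because the authors give 4 and 3 mice. No pair of libraries of the same genotype agreed within sampling noise. The fits were tested on simulated data. Intervals are for the log2 fold change between genotypes, given the spread between libraries, and do not show the range of single libraries.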

Additional observations from a re-analysis of the deposited data

Results flagged for a closer look

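*Miat* in the *Neat1*-KO libraries was marked because 1 library stood far from the others: *Neat1*-KO replicate 1 was at 92.5 CPM and the other 3 at 122, 122 and 126 CPM. The gap to the nearest library, divided by the range of the 4, was 0.860, above Dixon's 95% critical value for 4 samples. The same test was made for 12 genes, the 10 members with *Neat1* and *Malat1*, and was passed by 1. Chance alone marks about 1 in 20 groups. *Neat1*-KO replicate 1 was also the lowest library for *Meg3*, *Kcnq1ot1* and *Malat1*. Without it the log2 fold change of *Miat* was 0.041 in place of -0.047.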

How the results depend on the processing

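*Pantr1* was the only member called under any alternative. It was called in 4 of 19: with DESeq2 (adjusted p = 0.0534), with no filter (0.0055), with the replicate block (0.0611) and without *Neat1*-KO replicate 1 (0.0482), which gave 1 member called each. The genes called over the whole table numbered 27, 124, 39 and 31 in place of 6. Leaving out each library in turn gave 0 to 1 members and 3 to 31 genes called (11 without *Neat1*-WT replicate 4, 3 without *Neat1*-WT replicate 3). Why these counts differ was not tested. With no filter *Sox2ot*, whose libraries spread widely, had an unadjusted p of 0.19 in place of 0.71 (edgeR). The p values of the fit with no filter are given as a check only. Replicate numbers did not pair the samples: the correlations of deviations for numbers 2, 3 and 4 were -0.202, -0.122 and -0.0147, so the block is a check only. Number 1 occurs only in *Neat1*-KO, so the block in effect sets that library aside. The log2 fold change of *Pantr1* was -0.789 with the block and -0.798 without *Neat1*-KO replicate 1, and these fits are not separate support. With no filter *Pantr2* was also past the threshold (adjusted p = 0.0489, log2 fold change -1.10).

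Small log2 fold changes turned in sign. With the *Xist* covariate *Kcnq1ot1* was 0.079 and *Zbtb37* 0.073, with limma-voom *Meg3* was -0.0059 and *Cryba4* 0.23, and with the replicate block *Miat* was 0.051 and *Cryba4* 0.0097. *Xist* had at most 4 counts in any library, more of them in *Neat1*-KO, so that covariate rests on counts near the floor. Leaving out each library in turn, *Meg3* ran from -0.097 to 0.13, *Rian* from -0.076 to 0.029, *Mirg* from -0.097 to 0.044, *Miat* from -0.14 to 0.041, *Gas5* from -0.016 to 0.13, *Sox2ot* from -0.23 to 0.68, *Kcnq1ot1* from -0.36 to 0.016 and *Cryba4* from -0.47 to 1.22. *Cryba4* did not pass the filter without *Neat1*-KO replicate 1 or 3. *Snhg11*, *Rmst*, *Pantr1*, *Malat1* and *Neat1* kept their direction under all 17 refits. No pair of members passed an adjusted p of 0.05 without any single library or with total count scaling.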
